A study of Homo sapiens with 2 samples.

Results

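H4R3me2a, the asymmetric dimethylation of arginine 3 on the tail of histone H4, was mapped by chromatin immunoprecipitation sequencing (ChIP-seq) in HCT116, a widely used line of human colorectal carcinoma cells. The cells were untreated and cross-linked with formaldehyde, and 1 library made with an H4R3me2a antibody was set against 1 library of input DNA. The peaks described here are those in the most GC-rich sequence, chosen by a GC content of 70% or more in the window made of the summit and the 200 bp on either side of it (GRCh38). There were 2199 such peaks among 33349 on chromosomes 1 to 22 and X (6.59%, 95% exact interval 6.33 to 6.87%), and the other 31150 peaks had a lower GC content. Base composition alone chose them, so their GC content is no result, whereas their position, genes, CpG content and enrichment were not used. With 1 library of each kind there is no replicate check, no p-value was computed, and all intervals are 95% intervals that cover counting error only.

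Arginine methyltransferases of the PRMT family place this mark, chiefly PRMT1, and the related enzyme CARM1 acts on histone H3. The mark is known from transcribed genes. GC-rich sequence in the human genome is found mostly in CpG islands, where the dinucleotide CpG has been kept, and most housekeeping and developmental genes start inside such an island. GC-rich sequence also occurs in coding exons and in GC-rich tandem repeats, so a high GC content does not by itself place a peak at a start site.

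Stretches of 101 bp around 5 summits show the range of sequence that these peaks cover. They are printed 5′ to 3′ with every CpG in capitals. DYNC1H1, the heavy chain of cytoplasmic dynein, had the highest-fold peak outside UTRs at 100 to 600 bp downstream of a canonical transcription start site (TSS). ACE, the angiotensin-converting enzyme, had the highest-fold peak on the upstream side. VGF, a neuropeptide precursor, had the highest fold in coding sequence outside promoters. The intergenic stretch is the first by position of a pair of peaks that tie for the highest intergenic fold, and KDM4B (a histone H3 lysine 9 demethylase) tied with DNMT3A for the highest GC content. The stretches lie in GRCh38 at chr14:101965068-101965168 (plus strand, intron 1 of DYNC1H1), chr17:63476849-63476949 (plus strand, 162 bp upstream of the TSS of ACE), chr7:101163828-101163928 (minus strand, coding exon 2 of VGF), chr1:136815-136915 (plus strand, intergenic) and chr19:4969291-4969391 (plus strand, intron 1 of KDM4B).
DYNC1H1: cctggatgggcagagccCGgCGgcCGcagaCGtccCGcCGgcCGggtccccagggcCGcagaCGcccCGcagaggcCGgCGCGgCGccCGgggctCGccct
ACE: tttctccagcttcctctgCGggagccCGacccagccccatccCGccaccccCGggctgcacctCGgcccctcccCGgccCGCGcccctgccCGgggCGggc
VGF: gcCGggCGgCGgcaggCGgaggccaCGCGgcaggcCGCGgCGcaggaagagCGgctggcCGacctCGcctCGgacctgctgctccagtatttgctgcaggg
Intergenic peak on chromosome 1: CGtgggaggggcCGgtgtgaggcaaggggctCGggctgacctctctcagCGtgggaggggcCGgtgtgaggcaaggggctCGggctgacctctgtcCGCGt
KDM4B: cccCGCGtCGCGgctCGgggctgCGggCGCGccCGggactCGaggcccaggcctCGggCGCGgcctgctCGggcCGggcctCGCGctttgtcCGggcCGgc
The DYNC1H1 stretch held 16 CpGs and the KDM4B stretch 19, spread over the whole stretch. The intergenic stretch repeats itself at a shift of 49 bp, and the central 32 bases of that peak occur 35 times in the genome. Where a sequence has several copies, a fragment cannot be assigned to one of them with certainty, so the position of the intergenic peak is uncertain.

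For comparison with the peak at DYNC1H1, the 100 bp directly upstream of its canonical TSS are printed from the RefSeq promoter table (GRCh38.p14, chr14:101964473-101964572, plus strand), because no peak lay over them although they are nearly as GC-rich.
DYNC1H1 upstream: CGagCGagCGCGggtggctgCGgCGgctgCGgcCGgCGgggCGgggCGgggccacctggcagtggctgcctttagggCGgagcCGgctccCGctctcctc
In the 101 bp at the summit, 545 bp downstream of the TSS, 84.2% of bases were G or C and there were 16 CpGs, against 81% and 14 CpGs in the 100 bp upstream.

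GC-rich peaks were dense but not at the densest GC content. Sequence of 70% GC or more makes up 10.4 Mb of the genome (0.357%), and it held 212 peaks per Mb (exact Poisson interval 203 to 221), against 11.5 per Mb over all sequence that is not N. Sequence of 65 to 70% GC held 283 per Mb (275 to 292), above the interval of the GC-rich peaks. Density was highest at 66 to 68% GC with 289 per Mb (277 to 301). It was 241 per Mb at 70 to 72% GC (224 to 258), 228 at 76 to 78% (202 to 256), 159 at 78 to 80% (134 to 187), 134 at 80 to 82% (107 to 167) and 98.8 at 82 to 84% (62.6 to 148). Only 2 peaks lay in sequence of 84% or more, which gives 18.7 per Mb (2.26 to 67.5). The density therefore stayed near 200 per Mb or above up to 78% GC and was lower in each step beyond it. Recovered background is listed only at peaks, so how well fragments covered GC-rich sequence without a peak was not measured.

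**Figure D1:**
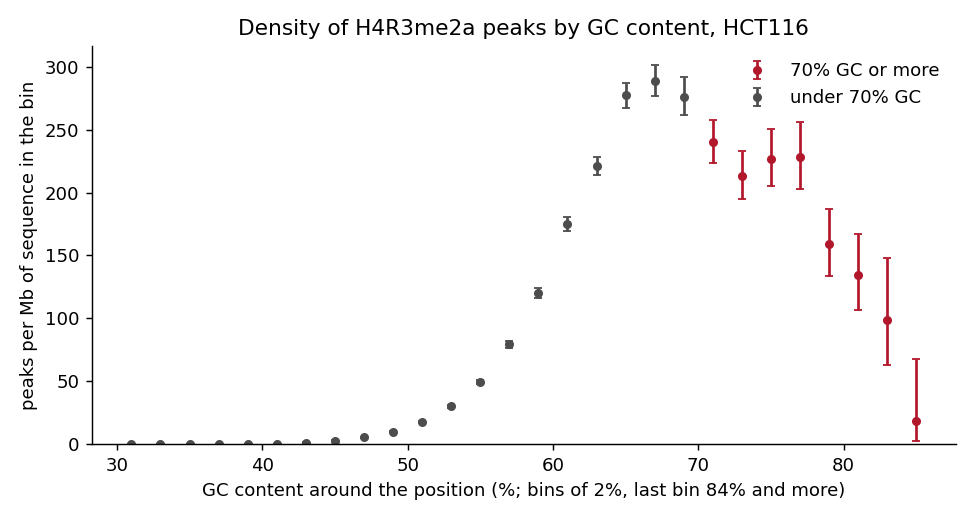
Peaks per Mb of genome sequence (y axis) in steps of 2% GC content of the summit and the 200 bp on either side (x axis); points are densities, bars are 95% exact Poisson intervals, and red marks 70% GC or more. Density is highest at 289 per Mb in the 66 to 68% step, stays between 213 and 241 per Mb from 70 to 78% GC and is 18.7 per Mb at 84% and above.

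Enrichment rested on few fragments in these peaks, as in the rest of the list. The pileup of fragments at the summit had a median of 10 in GC-rich peaks and 10 in other peaks, and 60.7% of GC-rich peaks (58.6 to 62.7%) against 59.4% of other peaks had a pileup of 10 or fewer. Peaks of 65 to 70% GC stood higher, with a median pileup of 11 (11 to 12) and 36.4% (35.0 to 37.8%) at 10 or fewer. The background recovered at the summit was lower in GC-rich peaks, with a median of 1.24 fragments (1.2 to 1.3) against 1.54 in other peaks and 2.0 in peaks of 65 to 70% GC. Median fold enrichment, as the authors' caller gave it, was 4.45 in GC-rich peaks (4.39 to 4.49) and 4.15 in other peaks (4.14 to 4.17). There were 200 GC-rich peaks with a fold of 6 or more (9.10%, 7.93 to 10.4%) and 972 such other peaks (3.12%, 2.93 to 3.32%), against 3.51% of all peaks. Because fold depends on the background, it was also compared at like background. Under 0.8 fragments the median fold was 4.71 in GC-rich and 4.55 in other peaks, at 0.8 to 1.3 it was 4.79 and 4.45, and at 1.3 to 1.8 it was 4.34 in GC-rich and 4.33 in other peaks. At 1.8 to 2.3 fragments it was 4.17 in GC-rich and 3.98 in other peaks, and above 2.3 it was 3.65 in GC-rich and 3.60 in other peaks. The excess in fold was thus largest at a background of 0.8 to 1.3 fragments, which held 776 GC-rich peaks, and the intervals overlapped in each step from 1.3 fragments up. The median width was larger in GC-rich peaks, 222 bp (215 to 229) against 183 bp (182 to 184) in other peaks, and a width of 500 bp or more was reached by 174 (7.91%) and 3.22%. Peaks of 65 to 70% GC had the same median width of 222 bp, so the width did not set the GC-rich peaks apart from their nearest neighbours in GC content.

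Most GC-rich peaks lay at promoters. A promoter here reaches 1 kb to both sides of every TSS annotated for a protein-coding gene. Promoters held 1620 of the 2199 summits (73.7%, 71.8 to 75.5%), against 27.2% of other peaks and 61.9% of all GC-rich sequence. Coding sequence outside promoters held 159 (7.23%, 6.18 to 8.39%), against 4.14% of other peaks and 4.44% of GC-rich sequence. Introns held 230 (10.5%), against 43.4% of other peaks and 16% of GC-rich sequence, and intergenic sequence held 120 (5.46%), against 17.9% of other peaks and 13.8% of GC-rich sequence. The 3' UTRs held 40 (1.82%), exons of non-coding genes 28 (1.27%) and 5' UTRs outside promoters 2. Promoters, coding sequence and 3' UTRs thus held more of the GC-rich peaks than their share of GC-rich sequence. Introns, intergenic sequence and non-coding exons held less.

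Set against the amount of GC-rich sequence in each class, coding sequence was the densest. It held 345 GC-rich peaks per Mb (293 to 403), against 252 at promoters (240 to 265), and the 3' UTRs held 316 (226 to 431), an interval that overlaps coding sequence. Introns held 139 per Mb (121 to 158), non-coding exons 104 (69.3 to 151) and intergenic sequence 83.8 (69.5 to 100.2). The intervals of intergenic sequence and of introns did not reach that of promoters. Peaks of 65 to 70% GC were denser in intergenic sequence, at 189 per Mb (174 to 205), in introns at 257 and at promoters at 331, and in coding sequence their 378 per Mb (341 to 417) overlapped the interval of the GC-rich peaks. Coding GC-rich peaks stood on a higher background than those at promoters, with medians of 2.01 and 1.11 fragments, and their median fold was 4.17 against 4.50 at promoters; the part of the background in the densities was not tested.

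**Figure D2:**
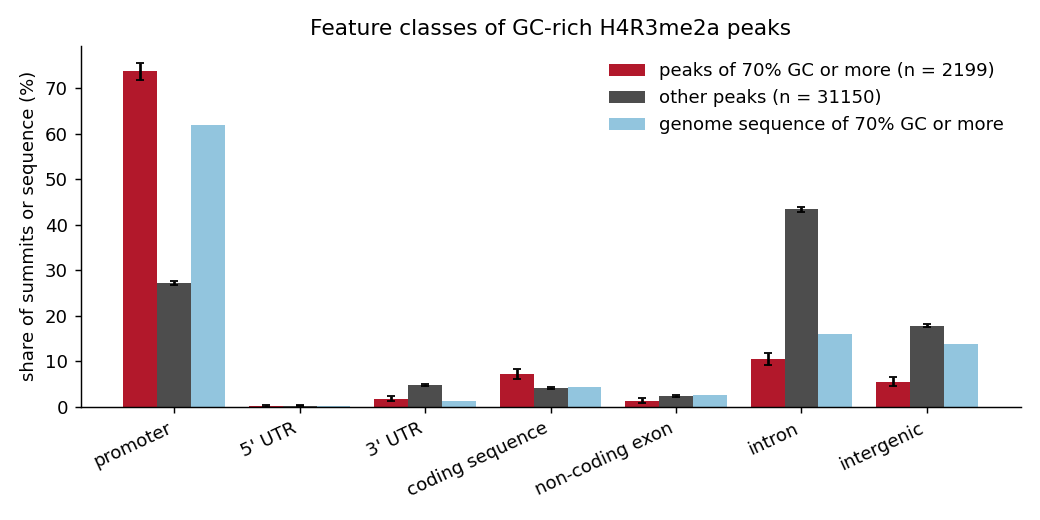
Share of summits or of sequence in percent (y axis) by feature class (x axis) for 2199 GC-rich peaks, 31150 other peaks and the 10.4 Mb of genome sequence of 70% GC or more; bars start at 0 and error bars are 95% exact intervals of the peak shares. Promoters hold 73.7% of GC-rich peaks, 27.2% of other peaks and 61.9% of GC-rich sequence, while introns hold 10.5%, 43.4% and 16%.

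Within the canonical transcript (the transcript the annotation marks as representative), the first intron carried the most GC-rich peaks. It held 824 summits (37.5%, 35.4 to 39.5%), against 20.3% of other peaks and 19.6% of GC-rich sequence, or 404 per Mb (377 to 433). First exons held a similar amount of GC-rich sequence, 2.11 Mb against 2.04 Mb in first introns, but fewer peaks, 445 summits or 211 per Mb (192 to 232). Later exons held 291 summits at 344 per Mb (306 to 386) and later introns 244 at 211 per Mb (185 to 239). The 1 kb upstream of the canonical TSS held 137 summits at 84.1 per Mb (70.6 to 99.4), and sequence elsewhere held 258 at 99.2 per Mb. The first intron was therefore denser than the first exon, and both were denser than the upstream kilobase, beyond their counting intervals. The intervals of the first intron and of later exons overlapped. Peaks of 65 to 70% GC kept the order of the first intron at 414 per Mb, the first exon at 200 and the upstream kilobase at 131. Their later exons held 426 per Mb and their later introns 324, so the first intron was not the densest part there.

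**Figure D3:**
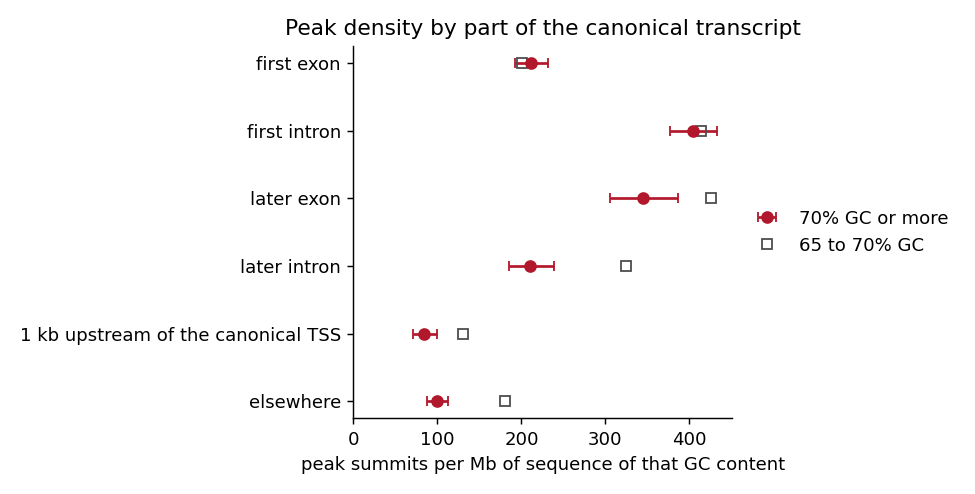
GC-rich peak summits per Mb of GC-rich sequence (x axis) by part of the canonical transcript (y axis); red points have 95% exact Poisson bars and open squares are peaks of 65 to 70% GC per Mb of such sequence, drawn without bars. For GC-rich peaks the first intron stands at 404 per Mb, the first exon at 211 and the 1 kb upstream of the canonical TSS at 84.1.

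The position relative to start sites was uneven. The 200 bp directly upstream of a canonical TSS held 0.978 Mb of GC-rich sequence but 42 GC-rich summits, or 43 per Mb (31.0 to 58.1). From the TSS to 200 bp downstream there were 183 summits at 131 per Mb (112 to 151), and from 200 to 600 bp downstream 746 summits at 428 per Mb (398 to 460). The density stayed high from 600 to 1000 bp downstream with 452 per Mb (396 to 515) and was 344 per Mb at 1 to 2 kb (283 to 414). On the upstream side it was 131 per Mb at 200 to 600 bp (103 to 164), 219 at 600 to 1000 bp (150 to 307) and 214 at 1 to 2 kb (139 to 317). Among the 100-bp steps from 1 kb upstream to 1 kb downstream, the lowest was the one directly upstream of the TSS, with 29.5 per Mb (17.2 to 47.2), and the highest was 400 to 500 bp downstream, with 520 per Mb (449 to 599). Peaks of 65 to 70% GC were also sparse in the 200 bp upstream, with 76.7 per Mb (56.4 to 102), and dense at 200 to 600 bp downstream, with 465 (426 to 507). Farther upstream they differed, since at 1 to 2 kb GC-rich peaks had 214 per Mb and peaks of 65 to 70% GC had 389 (317 to 474), close to their 426 (377 to 480) at 1 to 2 kb downstream.

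**Figure D4:**
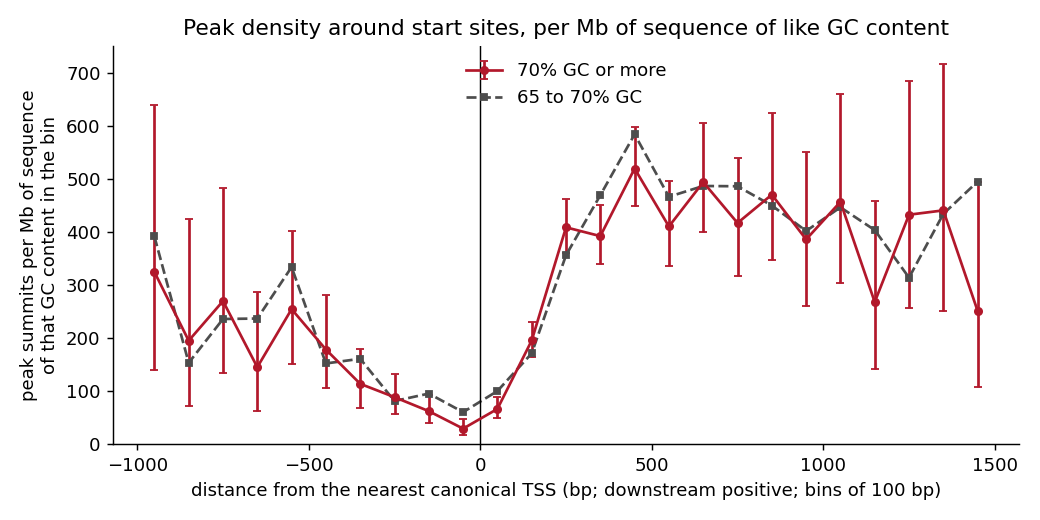
Summits per Mb of sequence of the same GC content (y axis) by distance from the nearest canonical TSS in steps of 100 bp (x axis, downstream positive); red points are GC-rich peaks with 95% exact Poisson bars and grey squares are peaks of 65 to 70% GC, drawn without bars. Both series are low around the TSS, where GC-rich peaks fall to 29.5 per Mb in the step directly upstream, and both are high from about 200 bp downstream, where GC-rich peaks reach 520 per Mb at 400 to 500 bp.

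As a count over both sides, 883 GC-rich summits lay 100 to 600 bp downstream of a canonical TSS and 102 lay 100 to 600 bp upstream, which is 8.66 times as many downstream (7.05 to 10.7). Among other peaks the ratio was 4.13 (3.66 to 4.67), from 1370 downstream and 332 upstream. GC-rich sequence is itself more abundant downstream, with 2.44 Mb against 0.993 Mb upstream. Per Mb of it, GC-rich peaks numbered 362 downstream and 103 upstream, a ratio of 3.53 (2.87 to 4.37), and the ratio of peaks of 65 to 70% GC per Mb of their own sequence was 2.92 (2.39 to 3.58). The downstream excess was thus larger than in other peaks by the raw counts, while per Mb its interval overlapped that of the peaks of 65 to 70% GC.

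The low density in the 200 bp upstream of start sites, set against 200 to 1000 bp downstream, was present at each level of GC content. These stretches lie at unlike distances from the TSS, and the first 200 bp downstream held 131 per Mb (112 to 151) over all levels. At 70 to 75% GC there were 472 GC-rich peaks per Mb (435 to 511) at 200 to 1000 bp downstream of a canonical TSS and 52.2 (34.4 to 75.9) in the 200 bp upstream. At 75 to 80% GC the values were 419 (374 to 468) downstream and 35.1 (18.2 to 61.4) upstream, and at 80% and more 237 (174 to 317) downstream and 25.3 (5.22 to 74) upstream, the last from 3 peaks. In each step the intervals of both sides were far apart. The difference was also present at like CpG content from a ratio of 0.6 up, measured as the ratio of observed to expected CpG. With a ratio of 0.6 to 0.8 the density was 503 per Mb (449 to 561) at 200 to 1000 bp downstream, 188 (166 to 214) more than 2 kb from a canonical TSS and 94.8 (56.2 to 150) in the 200 bp upstream. With a ratio of 0.8 to 1 it was 429 (393 to 467) downstream, 163 (139 to 189) more than 2 kb away and 29.97 (17.8 to 47.4) upstream, and with a ratio of 1 or more it was 251 (195 to 317) downstream, 72.4 (44.8 to 111) away and 11.6 (1.40 to 41.9) upstream. At a ratio of 0.4 to 0.6 it was 575 (419 to 769) downstream, 144 (127 to 164) away and 307 (83.5 to 785) upstream, where the value rested on 4 peaks, lay above that more than 2 kb away and had an interval that overlapped both others. Of the 4 steps from 0.4 up, the highest CpG ratio had the lowest density in each of the 3 places. Under a ratio of 0.4 the density was 584 (252 to 1151) downstream, from 8 peaks, and 267 (211 to 334) away, from 78. The 200 bp upstream held 0 peaks of that ratio, in only 0.0016 Mb of sequence.

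**Figure D5:**
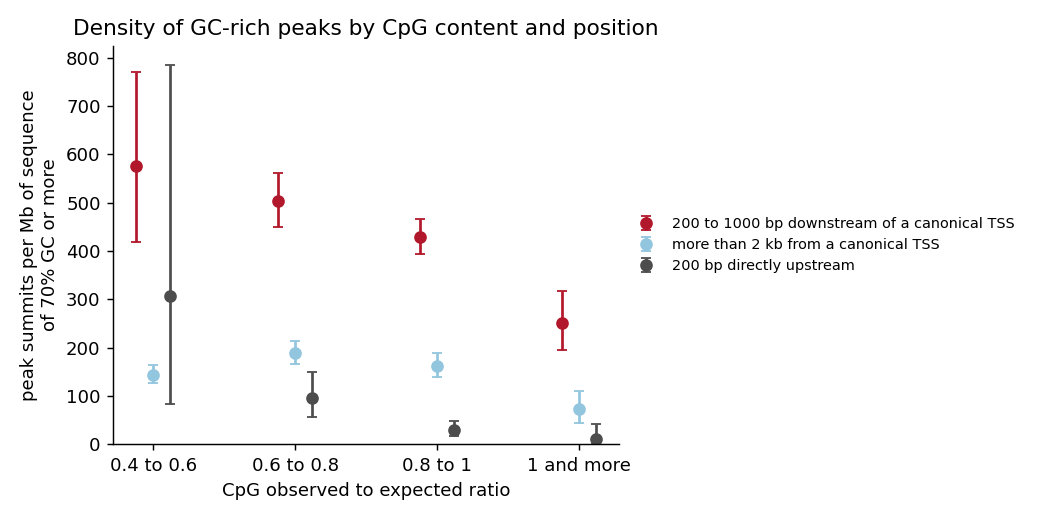
GC-rich peak summits per Mb of GC-rich sequence (y axis) by CpG observed to expected ratio around the summit (x axis) in 3 places relative to canonical TSSs; bars are 95% exact Poisson intervals. At a ratio of 0.8 to 1 the density is 429 per Mb at 200 to 1000 bp downstream, 163 more than 2 kb away and 29.97 in the 200 bp directly upstream.

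GC-rich peaks had a CpG content close to that of GC-rich sequence in general. The median observed to expected ratio was 0.792 in GC-rich peaks (0.782 to 0.802), against 0.284 in other peaks and 0.812 in all GC-rich sequence, and the median count was 42 CpGs in the window, against 9 in other peaks and 43 in GC-rich sequence. The promoter share of the peaks was larger at higher ratios from 0.4 up. It was 38.6% among the 316 GC-rich peaks with a ratio of 0.4 to 0.6, 74.7% among the 722 at 0.6 to 0.8, 86.5% among the 935 at 0.8 to 1 and 89.1% among the 128 at 1 or more. Below that it was 38.7% among the 93 at 0.2 to 0.4 and 0% among the 5 under 0.2. The share of GC-rich sequence at promoters was not measured by ratio, so whether the peaks differ from it was not tested. Per Mb, GC-rich peaks showed no steady order along the ratio. They numbered 88.3 (28.7 to 206) under 0.2, from 5 peaks, 337 (272 to 413) at 0.2 to 0.4, 172 (153 to 192) at 0.4 to 0.6, 261 (242 to 281) at 0.6 to 0.8, 216 (203 to 231) at 0.8 to 1 and 115 (95.7 to 136) at 1 or more. Tandem repeats, here windows in which 80% or more of bases recur at a shift of 5 to 100 bp, made up 4 GC-rich peaks (0.182%, 0.0496 to 0.465%), against 1.85% of GC-rich sequence. The intergenic peak printed above reached 79.8%, just under this cut, and is not among the 4. The central 32 bases occurred more than once in the genome in 68 GC-rich peaks (3.09%, 2.41 to 3.90%) and in 4.81% of other peaks (4.58 to 5.06%). Among peaks of 65 to 70% GC alone the share was lower, at 1.48% (1.16 to 1.86%).

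Short motifs were searched on both strands of each window, and a match is only a match of letters. The letters GGGCGGG, the core of the GC box bound by SP1, were present in 60.3% of GC-rich peaks (58.2 to 62.3%), against 13.6% of other peaks and 65.7% of GC-rich sequence. A G-quadruplex pattern (4 runs of 3 or more G with loops of 1 to 7 bases), which overlaps the GC box in letters, was present in 64.0% (61.9 to 66.0%), against 24.5% of other peaks and 65.5% of GC-rich sequence. Over all GC-rich peaks, neither was more common than in sequence of that GC content. At 200 to 1000 bp downstream of canonical TSSs, GGGCGGG was in 62.4% of GC-rich peaks (59.3 to 65.4%) and 61.6% of GC-rich sequence, and the G-quadruplex pattern in 66.9% (63.9 to 69.9%) and 65.3%, so both shares of sequence lay within the intervals of the peaks. Motifs that lie close to many CpG-island start sites were rarer in the peaks than in GC-rich sequence. The NRF1 motif was in 0.136% of GC-rich peaks (0.0281 to 0.398%) against 0.580% of GC-rich sequence, the ETS letters CCGGAAGT in 0.591% (0.315 to 1.01%) against 1.62%, and the CREB letters TGACGTCA in 0.318% (0.128 to 0.655%) against 0.864%. The E-box CACGTG was in 7.46% of GC-rich peaks (6.39 to 8.64%) and 7.82% of GC-rich sequence, and the TATA-box letters TATAAA were in 0.591% of GC-rich peaks, 5.38% of other peaks and 0.858% of GC-rich sequence.

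The share of promoters among the peaks differed with GC content. Between 70 and 72% GC, 63.3% of the 777 peaks were at promoters (59.8 to 66.7%), against 85.3% of the 285 peaks at 76 to 78% (80.6 to 89.2%) and 75.7% of the 107 peaks at 80% and more (66.5 to 83.5%). The share of GC-rich sequence at promoters also differed between these steps, at 52.8%, 72.2% and 65.4%. At the threshold, the 131 peaks with 281 G or C bases (70.1%) had a promoter share of 53.4% and a median fold of 4.21, and the 128 peaks with 280 bases (69.8%) just outside it 67.2% and 4.33. The first 3 peaks just inside by position lay near TTLL10, near TNFRSF18 and in exon 9 of TTC34, with folds of 4.59, 4.20 and 3.66, and the first 3 just outside near TTLL10, in an intron of a non-coding gene and in exon 40 of CHD5, with folds of 3.53, 4.34 and 4.36.

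Of 19970 protein-coding genes, 11066 have promoter sequence of 70% GC or more, and 1617 of these had a GC-rich promoter peak. That is 14.6% (14.0 to 15.3%), which is the background for the lists below. A GC-rich peak within 1 kb of the canonical TSS was found at 1323 genes. Another 6095 genes with GC-rich promoter sequence (55.1%) had no promoter peak of any GC content, and 133 genes had more than 1 GC-rich promoter peak. Since every annotated TSS counts, a peak can be counted for more than 1 gene, and can lie inside a gene or at the start of a neighbour. The median over the 1617 genes of each gene's highest fold was 4.59.

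The highest fold of all GC-rich peaks, 10.4, was in an intron of the transcribed pseudogene ESPNP (chr1:16699589-16699908, pileup 20, background 1.02), and ESPNP is a copy related to ESPN, so the assignment of fragments is uncertain although the central 32 bases occur once. SMAP2, a GTPase-activating protein of Arf in vesicle traffic, had a fold of 10.0 in exon 1 at 266 bp downstream of its TSS, from a pileup of 16 over 0.697 fragments. That was the lowest background of any GC-rich peak. The peaks of DYNC1H1 and DYRK2 shared it, so the order of these folds follows the pileup alone. DYNC1H1 had a fold of 9.43 (chr14:101964873-101965684, 812 bp wide). SH2B3, an adaptor that restrains cytokine signalling, reached 8.94 in exon 1, and 3 kinase genes had a peak in intron 1, DYRK2 with 8.84, SIK3 with 8.40 and MAP3K14, the NF-kappaB-inducing kinase, with 8.11. TMEM70, needed to assemble the mitochondrial ATP synthase, had a fold of 8.08 in exon 1. Outside promoters, SIX5, a homeodomain transcription factor, had 8.33 in the 3' UTR with only 13 CpGs in the window, and SLC16A3, the lactate exporter MCT4, had 8.15 in an intron with a pileup of 23. Of the 10 highest folds, 7 were at promoters, all 7 of them downstream of the gene's canonical TSS by 241 to 676 bp. Among all GC-rich peaks the promoter share was 73.7%. In the count over both sides of canonical TSSs given above, 883 GC-rich summits lay downstream and 102 upstream. These counts therefore do not set the 10 highest folds apart from GC-rich peaks in general.

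The widest GC-rich peak covered 1286 bp at exon 8 of BAHCC1, a gene for a chromatin protein with a BAH domain (chr17:81444411-81445696, fold 5.40, pileup 21). TUBB3, a neuronal beta-tubulin, had a peak of 1249 bp, and HSF1, the heat shock transcription factor, one of 1143 bp at exon 9. A peak in coding exon 2 of ZFP36L2, an mRNA decay factor, was also among the widest. Width and fold did not go together in these, since the fold was 3.39 at TUBB3 over a background of 4.61 fragments and 5.97 at ZFP36L2 over 0.842. The highest pileups were 23 at SLC16A3 and at a non-coding exon of the pseudogene CROCCP2, and 21 at BAHCC1, in exon 18 of CASKIN2 and in intron 3 of BOP1, a ribosome biogenesis factor. The highest GC contents were 84.8% at KDM4B, 84.8% and 83.5% at a pair of peaks in intron 1 of DNMT3A, a de novo DNA methyltransferase, 83.8% at AGPAT3, a lipid acyltransferase, and 83.5% at WNT5B, a secreted ligand. Their pileups were low, between 8 and 10 fragments, with folds between 3.09 at WNT5B and 5.86 at AGPAT3.

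Most genes with a GC-rich peak at the promoter or in the gene body had a single one (1707 genes), 192 genes had 2, and 12 genes had 4 or more. PLEC, which encodes the cytolinker plectin, had 9 among its 39 peaks, 5 of them at promoters and 3 in coding sequence, with folds of 2.86 to 4.91. APC2, a relative of the tumour suppressor APC, had 6 of 10, 4 of them in coding sequence, and the overlapping gene C19orf25 had 5 of 8. ASPSCR1 had 5 of 24 and BAHCC1 4 of 45. Long genes with many peaks therefore differed in how many were GC-rich, and GC-rich sequence in them ran from 2.90 kb in ASPSCR1 to 10.95 kb in PLEC. Another GC-rich summit lay within 1 kb of 221 GC-rich peaks (10.05%).

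Far from start sites, with no protein-coding TSS within 10 kb, lay 211 GC-rich peaks (9.60%, 8.40 to 10.9%), against 30.2% of other peaks and 23.3% of GC-rich sequence. After ESPNP, the highest folds among these were 7.66 at the repeat on chromosome 1 (chr1:136780-136935), 7.41 in an intron of UBE2D2, a ubiquitin-conjugating enzyme, 7.36 in intergenic sequence near OR2V1 and 7.07 in an intron of the non-coding gene TPT1-AS1. All 4 were narrow, between 154 and 185 bp, and the last lay in partly repetitive sequence, 60.6% of whose bases recurred at one shift.

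Among signalling pathways, genes of TGF-beta and BMP signalling had a GC-rich promoter peak in 14 of the 42 with GC-rich promoter sequence (33.3%, 19.6 to 49.5%), against 14.6% of all such genes. They included the ligand TGFB1 (fold 6.36, exon 1), the corepressor SKI (6.10, exon 1), LTBP4, which binds the latent ligand (5.97), and the ligand BMP8A (5.89), and the median over the 14 was 5.04, against 4.59 over all genes. BMP8A has a near-identical paralog, though the central 32 bases of its peak occur once. Per Mb of GC-rich promoter sequence the list had 372 gene and peak pairs (208 to 613), an interval that includes the 250 (238 to 262) of all genes. The WNT pathway had 12 of 54 (22.2%, 12 to 35.6%, median fold 4.29), with the scaffold AXIN1 at 6.48, beta-catenin (CTNNB1) at 5.89, the secreted inhibitor NOTUM at 5.55 and the transcription factor TCF7L1 at 4.58. Receptor tyrosine kinase, RAS and MAPK genes had 10 of 50 (20.0%, median fold 4.42), among them HRAS at 6.08, FGFR3 at 5.14, the kinase AKT1 at 4.96 and the insulin receptor INSR at 4.91. Hedgehog genes had 3 of 16, the coreceptors GAS1 (6.48) and CDON (4.12) and the receptor PTCH1 (5.24). Notch genes had 4 of 31 (12.9%), the HES-family repressors HES2 (6.56) and HES4 (4.22), the coactivator MAML1 (5.43) and the ligand JAG2 (4.17). The peak counted for HES2 lay in exon 1 of the neighbouring gene ESPN. That of JAG2 lay in intron 17, near a TSS inside JAG2. Semaphorins, plexins and ephrins, which guide axons and cells, had 8 of 45 (17.8%), with SEMA4F at 5.47, SEMA7A at 5.45, SEMA3F at 5.01 and the ephrin receptor EPHB4 at 4.89.

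Chromatin regulators were represented across writers, erasers and remodellers. Histone lysine methyltransferases and demethylases had a GC-rich promoter peak in 12 of 46 (26.1%, 14.3 to 41.1%, median fold 4.67), with the H3 lysine 4 demethylase KDM1A at 6.48 in exon 1, the methyltransferases KMT2A at 6.46 and SETD1A at 4.96, and KDM2B at 4.74. The peaks of SETD1A (exon 14) and KDM2B (intron 6) lay near TSSs inside the gene. The share interval includes the 14.6% of all genes. Per Mb of GC-rich promoter sequence the list had 274 pairs (142 to 479), an interval that includes the 250 of all genes. Polycomb and remodelling genes had 8 of 48 (16.7%), with PCGF3 at 5.96, CBX8 at 5.46, SMARCA2, an ATPase of the BAF complex, at 5.43 and TET3, a 5-methylcytosine dioxygenase, at 5.25. The central 32 bases of the PCGF3 peak occur 3 times in the genome, so its position is uncertain. Acetyltransferases, deacetylases and their corepressors had 3 of 30 (10.0%), among them HDAC5 at 5.91 and HDAC2 at 3.95. The enzymes that place arginine methylation had none. Of PRMT1 to PRMT9 and CARM1 (the name of PRMT4 in the annotation), 5 have GC-rich promoter sequence. A GC-rich promoter peak was found at 0 of these 5, which allows a share of up to 60% (52.2% by the exact interval). PRMT1 had 5 peaks in all, whose highest GC content was 64.3%, CARM1 had 12, with a highest of 65.8%, and PRMT7 had 1, of 63.1%.

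Growth and metabolic genes had shares around the background. Cell cycle and replication genes had 8 of 35 (22.9%, 10.4 to 40.1%), with CDC25B and MCM4 at 5.23 each, CDC25A at 5.07 and E2F2 at 4.94. The peak counted for CDC25B, near one of its upstream TSSs, lay in exon 1 of a neighbouring gene. DNA repair genes had 3 of 24 (12.5%), with FANCE at 6.73 and XPA at 4.71 among them. Glycolysis had 3 of 16 (18.8%), the glucose transporter SLC2A1 at 6.42, PKM at 4.48 and PFKP at 3.95. Fatty acid and cholesterol synthesis had 5 of 24 (20.8%), with MVD at 4.94, FADS2 at 4.12, the regulator SREBF1 at 4.06 and FASN at 3.95. The SREBF1 peak lay in intron 16, near a TSS inside the gene. Cytosolic ribosomal proteins had 4 of 22 (18.2%), RPLP2 at 6.27, RPL14 at 4.83, RPS15 at 4.66 and RPL22 at 4.03 (in an intron of an overlapping gene), and oxidative phosphorylation had 1 of 17, COX4I1 at 5.89. The list named housekeeping had 3 of 22, POLR2B at 6.19, EEF1A2 at 3.97 and YWHAZ at 3.55, and the POLR2B peak lay in exon 1 of a neighbouring gene. Expression was not measured here, so membership of that list is a label only. The intervals of all these lists include 14.6%.

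RNA splicing factors had a GC-rich promoter peak in 1 of 36 (2.78%, 0.0703 to 14.5%), NOVA2 at 4.06, although 27 of the list's 51 genes had a promoter peak of some GC content. ZNF genes had 19 of 236 (8.05%, 4.92 to 12.3%), led by ZNF697 at 6.51, ZNF652 at 5.52, ZNF574 at 5.49 and ZNF467 at 5.13, and the ZNF574 peak lay in exon 1 of an overlapping gene. Their promoters hold less GC-rich sequence, and per Mb of it they had 175 pairs (107 to 270), an interval that includes the 250 of all genes. Developmental transcription factors had 12 of 107 (11.2%, 5.93 to 18.8%, which includes 14.6%), with PAX8 at 5.71, TLX1 at 5.34, DLX3 at 4.72 and TLX2 at 4.59. The PAX8 peak lay in intron 8, near a TSS inside the gene. HOX genes had 0 of 30, and a share of up to 10% (11.6% by the exact interval) is compatible with that count. Of the 39 HOX genes, 15 had a promoter peak under 70% GC. Their GC-rich promoter sequence amounted to 11.2 kb, in which 0 peaks allow up to 329 per Mb, above the 250 of all genes.

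Structural genes and markers of cell types gave small counts. Collagens had 4 of 21 (19%), COL18A1 at 6.18, COL6A2 at 5.11, COL13A1 at 5.08 and COL2A1 at 4.59, and tubulins had 2 of 12, TUBB2A at 7.90 and TUBB3 at 3.39. TUBB2A too has a near-identical paralog, and the central 32 bases of its peak occur once. Markers of the intestinal epithelium, the tissue HCT116 comes from, had 3 of 17 (17.6%), the tight junction genes TJP1 (5.43) and OCLN (3.55) and the transcription factor KLF5 (4.06). Markers of neurons and glia had 7 of 22 (31.8%, 13.9 to 54.9%), with GRIN1 at 4.59, SHANK3 at 4.52, SYN1 at 4.28 and SLC17A7 at 4.24, and those at GRIN1 (exon 20) and SYN1 (exon 12) lay near TSSs inside the gene. The interval of this share includes the 14.6% of all genes. Per Mb of GC-rich promoter sequence the list had 292 pairs (118 to 602), an interval that includes the 250 of all genes. Muscle genes had 1 of 10, TNNI2 at 4.23. Blood and immune genes had 0 of 7, fibroblast and endothelial genes 0 of 7, replication-dependent histones 0 of 4, olfactory receptors 0 of 3 and liver genes 0 of 2, so that few of these could have had a GC-rich promoter peak. A GC-rich promoter peak therefore occurred at markers of the tissue of origin and of other tissues.

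By chromosome, GC-rich peaks were densest on 17, with 349 per Mb of GC-rich sequence (304 to 399), and on 19, with 315 (275 to 359), against 212 over all chromosomes. Chromosome 8 followed with 261 per Mb (215 to 313), and chromosomes 10 and 18 had 144 each. The X had 12 GC-rich peaks at 39.2 per Mb (20.3 to 68.5), with a median background of 0.770 fragments against 1.24 over all GC-rich peaks. GC-rich peaks made up 5.67% of all peaks on chromosome 17 (4.96 to 6.46%) and 6.53% on 19 (5.74 to 7.40%), against 6.59% over all chromosomes. The share was 8.13% on chromosome 8, 5.44% on 10, 11.0% on 18 and 6.78% on the X. On 17 and 19 the higher density thus did not go with a larger share of the peaks. Chromosome 8 had the highest median background among chromosomes, 2.05 fragments, and chromosome 17 stood at 1.75, so background and density both differed between chromosomes, and the part of the background in the densities was not tested. The promoter share ran from 59.2% on chromosome 19 (52.5 to 65.7%) to 87.1% on chromosome 3 (78.5 to 93.2%). On each chromosome, GC-rich summits were more numerous 100 to 600 bp downstream of canonical TSSs than upstream, with 61 and 4 on chromosome 19 and 5 and 0 on the X.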

How the data were processed

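One H4R3me2a library and 1 input library from HCT116 cells were compared through the authors' single peak list, so no replicates were pooled. The submitters' processing notes name Bowtie2, MACS2, deepTools and GRCh38, and their versions, like the read filters and read numbers, were not given in these sources. Per the file headers, the deposited table gives each peak's pileup signal (fragments at the summit), fold (a ratio over local background) and −log10 p and q. All values are those of the authors' caller. The deposited interval list repeats them with a score, and an authors' summary gives totals, and neither entered a result. The 4 peaks on mitochondrial DNA were left out.

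Background was recovered as (pileup + 1) / fold − 1. Its lowest value was 0.697 fragments in GC-rich and in other peaks. Several named peaks shared this floor, where fold follows the pileup alone. GC content was measured in the 200 bp on either side of each summit, with 281 G or C bases as the minimum, and the same was done every 50 bp of the genome to obtain the amount of GC-rich sequence. Classes followed GENCODE release 44 in the order promoter, 5' UTR, 3' UTR, coding sequence, non-coding exon, intron, intergenic, and the canonical transcript gave signed distances. Shares have Clopper-Pearson intervals, densities exact Poisson intervals and medians intervals from binomial ranks. For a share, a count of 0 was instead read as up to 3 counts, while a density of 0 kept its exact Poisson upper limit. Python 3.11.15, numpy 2.4.6, pandas 2.3.3, scipy 1.17.1 and matplotlib 3.10.9 were used, and the scripts were tested on simulated data. Of the 1617 genes with a GC-rich promoter peak, 1242 matched the RefSeq promoter table.

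Named genes were those of the 10 highest folds, the 5 widest peaks, the 5 highest pileups, the 5 highest GC contents, the 5 genes with the most peaks, the 5 highest folds more than 10 kb from a TSS, up to 4 genes of each list by fold, and the PRMT family. Some genes that this rule took are not reported here. The peaks, lists and comparisons were chosen with earlier results of these data known, and the stretches around TSSs, the repeat and copy measures and the ratio per Mb were added after values had been seen.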

Additional observations from a re-analysis of the deposited data

How the results depend on the processing

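Of 78 alternative values, 32 stayed within counting error or, for counts, within 1.5 times the main value, and 46 moved. The downstream to upstream ratio stayed above 1 under each alternative tried. With a −log10 q of 5 or more, 187 GC-rich peaks remained, with a promoter share of 78.1%, a ratio of 31.0 (12.6 per Mb), a median fold of 6.59, width of 359 bp, background of 1.09 and CpG ratio of 0.778, and 163 genes. The interval of that ratio was wide, 10.3 to 153 (4.19 to 62.4 per Mb), and overlapped that of the main value. With a fold of 4 or more the promoter share was 77.0%, the fold 4.89, the width 239 bp and the background 1.09. Merging peaks less than 1 kb apart gave a fold of 4.59, a width of 264 bp and a background of 1.17. With GC content over 100 bp on either side of the summit the promoter share was 66.7%, the fold 4.37, the background 1.36 and the CpG ratio 0.741. Over 500 bp on either side there were 1259 peaks, a promoter share of 79.6%, a ratio of 6.75, 992 genes and a CpG ratio of 0.816. Over the whole peak these were 65.2% at promoters, a ratio of 6.96, a fold of 4.34, a width of 198 bp, a background of 1.41 and a CpG ratio of 0.728. A threshold of 65% GC gave 7006 peaks, 53.8% at promoters, a ratio of 6.60, a fold of 4.26, a background of 1.68, 3121 genes and a CpG ratio of 0.535, and one of 75% gave 706 peaks, 82.9% at promoters, a background of 1.06, 609 genes and a CpG ratio of 0.867. Promoter windows of 500 bp and 3 kb gave shares of 61.0% and 82.4%, and canonical TSSs alone 59.7%. The causes were not tested. Most peaks rested on 10 or fewer fragments, which limits single peaks. No paired analysis was possible because there was 1 library of each kind.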
